A study of Homo sapiens with 5 samples.

Results

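Respiratory chain subunits were followed in IMR-90 cells, a line of normal fibroblasts from human lung, after knockdown of NSD2, a histone methyltransferase of H3 lysine 36. The genes were taken by name from the table of normalized counts: names that start with NDUFA, NDUFB, NDUFC, NDUFS or NDUFV and a digit (complex I), SDHA to SDHD (complex II), UQCR (complex III), COX4 to COX8 (complex IV) or ATP5 (complex V), without names that hold AF or a hyphen. Of 26364 listed names, 91 met this rule, 38 for complex I, 7 for complex II, 10 for complex III, 17 for complex IV and 19 for complex V. The rule uses names and no measured value.

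The cells were grown in DMEM/F12 with serum and collected 24 hr after siRNA transfection for sequencing of poly(A) mRNA. The 2 Ctr-KD libraries were from cells given a control siRNA, and the 3 NSD2-KD libraries were from cells given 1 of 3 different siRNAs against NSD2 (NSD2-1, NSD2-2 and NSD2-3). No other treatment is given for either group. Each NSD2 siRNA therefore had 1 library, so the NSD2-KD libraries were replicates of the knockdown and not of any siRNA. The study's methods describe the libraries of both groups as biological replicates, while the labels name no separate cultures, and p-values measure the spread between these 5 libraries.

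The respiratory chain sits in the inner mitochondrial membrane. Complex I takes electrons from NADH and complex II takes them from succinate, and ubiquinone carries both streams to complex III, from which cytochrome c brings them to complex IV and oxygen. Complexes I, III and IV pump protons as electrons pass, and complex V, the ATP synthase, lets the protons back and makes ATP. A few core subunits of complexes I, III, IV and V are encoded by mitochondrial DNA and were not analysed here, so all values below are for nuclear genes.

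Between 2473691 and 2845063 reads fell on genes per library. NSD2, listed under its older symbol WHSC1, had normalized counts of 463 and 443 in Ctr-KD cells and 90.2, 81.9 and 87.9 with NSD2-1, NSD2-2 and NSD2-3, a log2 difference of -2.37 (SE 0.12, limma adjusted p = 0.000464). All 9 fibroblast markers examined were present, with a summed level between 202229 and 228133 per library. The 4 endothelial markers together stayed between 1.91 and 6.55, and PECAM1, CDH5 and the blood markers PTPRC and CD3E were at 0 throughout. Of 5 epithelial markers, KRT8 and KRT18 were read in all libraries while EPCAM, CDH1 and KRT19 were at or near 0, and the summed level of the 5 ranged from 150 to 265, highest with NSD2-3. In bulk RNA, fewer cells of a type and less RNA per cell cannot be told apart.

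Normalized counts are reads divided by 1 factor per library, which makes libraries comparable, and a shift of all genes together would not be seen. Of the 91 genes, 80 reached a mean normalized count of 10 and were tested among 11313 genes. These were 37 of complex I, 6 of complex II, 9 of complex III, 11 of complex IV and 17 of complex V. The 6 of complex II include the pseudogenes SDHAP1 and SDHAP2. The other 11 of the 91 are described with their complexes, and 6 of them had no read in any library. Exons of 48 of the 91 genes overlap those of another annotated gene, and the annotation and strand setting of the counting are not given in the sources used here, so reads of such pairs cannot be told apart.

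No subunit gene passed the test after NSD2-KD, in any of the 5 complexes. None of the 80 reached an adjusted p of 0.05 in limma, edgeR or DESeq2, in either direction, and none had an unadjusted p under 0.05 in any of these tools. Among all tested genes, limma called 0.053% lower and 0.0354% higher, edgeR 0.0972% and 0.0442%, and DESeq2 0.362% and 0.124%. At an unadjusted p under 0.05, limma held 4.99% of all tested genes as lower and 4.19% as higher, edgeR 5.28% and 3.96%, and DESeq2 2.9% and 1.63%. The lowest adjusted p of any subunit gene was 0.592 in limma, for NDUFA3, and 0.606 in edgeR.

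A missed threshold does not show that levels were equal, so the size of change that the data allow was taken from the 95% interval of each log2 difference. For 63 of the 80 genes the whole interval lay within 1.5-fold of no change, against 45% of all tested genes. Among genes with a mean of at least 50, this held for 62 of 73 subunit genes, against 63.2% of all. For 78 of the 80 the interval lay within 2-fold. The median distance from the estimate to the end of its interval was 0.36 on the log2 scale. By complex, the interval stayed within 1.5-fold for 30 of 37 genes of complex I, 3 of 6 of complex II, 6 of 9 of complex III, 9 of 11 of complex IV and 15 of 17 of complex V. In complex II these were SDHA, SDHB and SDHD, and the others were SDHC and the pseudogenes SDHAP1 and SDHAP2.

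The direction of the small differences was mixed. The log2 difference of NSD2-KD from Ctr-KD was above 0 for 42 of 80 genes and below 0 for 38, and its median was 0.012, against -0.0089 over all tested genes. The medians by complex were 0.017 for complex I, -0.066 for complex II, -0.024 for complex III, -0.082 for complex IV and 0.060 for complex V. The complex II median includes the pseudogenes SDHAP1 (-0.055) and SDHAP2 (-0.51). In complex V, 14 of 17 genes were above 0, and in complex IV 7 of 11 were below 0. The complex V count includes ATP5S (0.038) and ATP5SL (0.076), which are not structural subunits of the enzyme. For comparison, 48.5% of all tested genes were above 0 and 51.5% below. These medians are descriptions with no test.

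The 3 siRNAs gave nearly the same medians over the 80 genes, 0.016 for NSD2-1, 0.022 for NSD2-2 and 0.013 for NSD2-3, each as the log2 difference from the Ctr-KD mean. Within complexes they spread more. For complex I the medians were 0.021, 0.060 and 0.013, and for complex III 0.034, -0.0044 and -0.0013. Complex II, with the pseudogenes SDHAP1 and SDHAP2 among its genes, read 0.0083, 0.032 and -0.16, the last being the lowest of these medians. With NSD2-1, SDHA, SDHB, SDHC and SDHD differed by 0.0017, 0.015, 0.25 and 0.17. With NSD2-2 they differed by 0.20, 0.17, 0.13 and -0.25, and with NSD2-3 by 0.063, -0.17, -0.75 and -0.15. SDHAP1 (-0.14, -0.066 and 0.041) and SDHAP2 (-0.057, -0.66 and -0.81) were both below 0 with NSD2-1 and NSD2-2. Complex IV read -0.021, -0.010 and -0.038, below 0 with each siRNA. Complex V read 0.012, 0.14 and 0.056, above 0 with each. With 1 library per siRNA, no test between siRNAs was made.

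**Figure D1:**
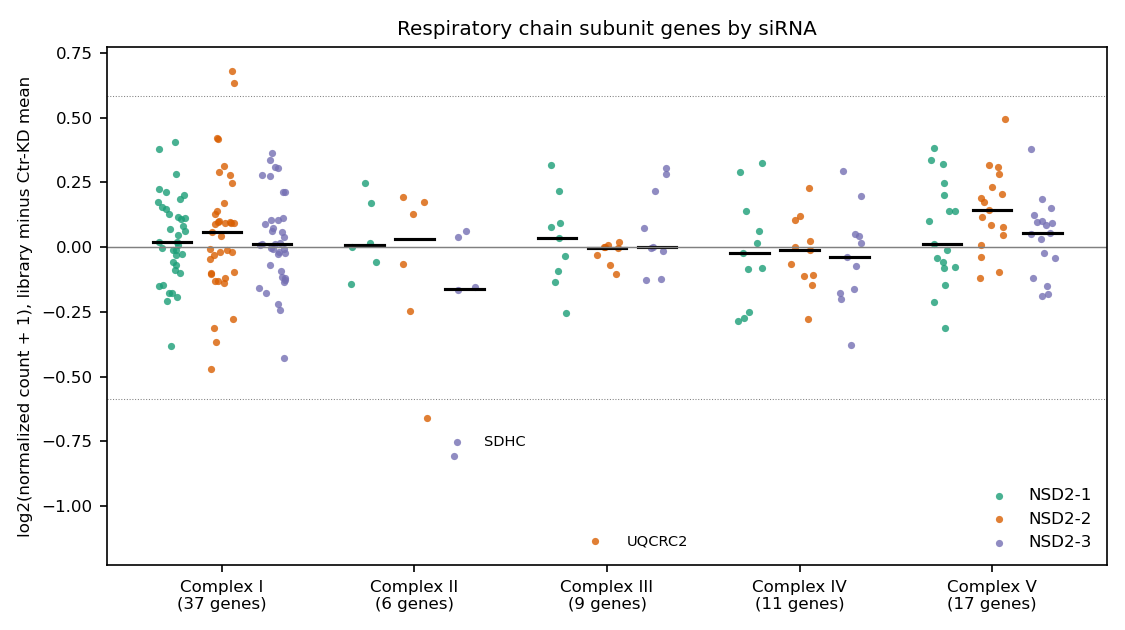
Each point is 1 of the 80 tested subunit genes, and the vertical axis gives log2(normalized count + 1) of the NSD2-KD library minus the Ctr-KD mean, for each siRNA (green NSD2-1, orange NSD2-2, violet NSD2-3). Black bars are medians and dotted lines mark 1.5-fold; the points centre near 0 in all 5 complexes, with UQCRC2 under NSD2-2 (-1.14) lowest of all and SDHC (-0.75) and the pseudogene SDHAP2 (-0.81) low under NSD2-3.

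Summed over their genes, the complexes also stayed near the Ctr-KD mean. Complex I summed to 4581 and 4586 normalized counts in Ctr-KD cells and to 4631, 4745 and 4605 with NSD2-1, NSD2-2 and NSD2-3. Complex II summed to 692 and 644 against 701, 708 and 603, and complex III to 1537 and 1565 against 1534, 1400.4 and 1589. Complex IV summed to 1821 and 1808 against 1829, 1797 and 1744, and complex V to 4554 and 4519 against 4648, 4838 and 4647. Relative to the Ctr-KD mean, NSD2-KD cells held on average 101.7% of complex I, 100.4% of complex II, 97.2% of complex III, 98.7% of complex IV and 103.8% of complex V. All 91 genes together took between 0.494% and 0.510% of the normalized counts of a library. The lowest single sums were 90.3% of Ctr-KD for complex II with NSD2-3 and 90.3% for complex III with NSD2-2. In normalized counts, SDHC with NSD2-3 and UQCRC2 with NSD2-2 lay furthest below their Ctr-KD means in these sums. As a share of the Ctr-KD mean, the pseudogene SDHAP2 with NSD2-3 (51.6%) was lower than SDHC (58.9%).

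The spread of the subunit genes was also taken beside that of all genes. The log2 differences of the 80 genes had an SD of 0.15, against 0.32 over all tested genes, and with a mean of at least 50 the SDs were 0.13 and 0.27. A chi-square of the reads over the 5 libraries, divided by its degrees of freedom, is near 1 when only counting error acts. It exceeded 2 for 13 of the 80 genes, against 45.6% of all tested genes, and for 12 of the 73 with a mean of at least 50, against 54.9%. Its median over the 80 genes was 1.27, against 1.79.

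Expression differed far more between subunits than between groups. Per kilobase of transcript, ATP5B, the catalytic beta subunit of ATP synthase, was the most abundant, with a mean of 702 normalized counts per kilobase over the 5 libraries. NDUFS5 followed in complex I with 544 and COX4I1 in complex IV with 496. In complex III UQCRB led with 299, UQCRH had 296 and UQCRC1 289, and in complex II SDHC led with 256. The length behind these values is the median of the basic GENCODE transcripts of a gene. With the canonical transcript instead, ATP5B stayed at 702, NDUFS5 read 571 and COX4I1 517, but UQCRB fell to 22.8 and SDHC to 90.1, so the order within complexes II and III depends on the length used.

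**Figure D2:**
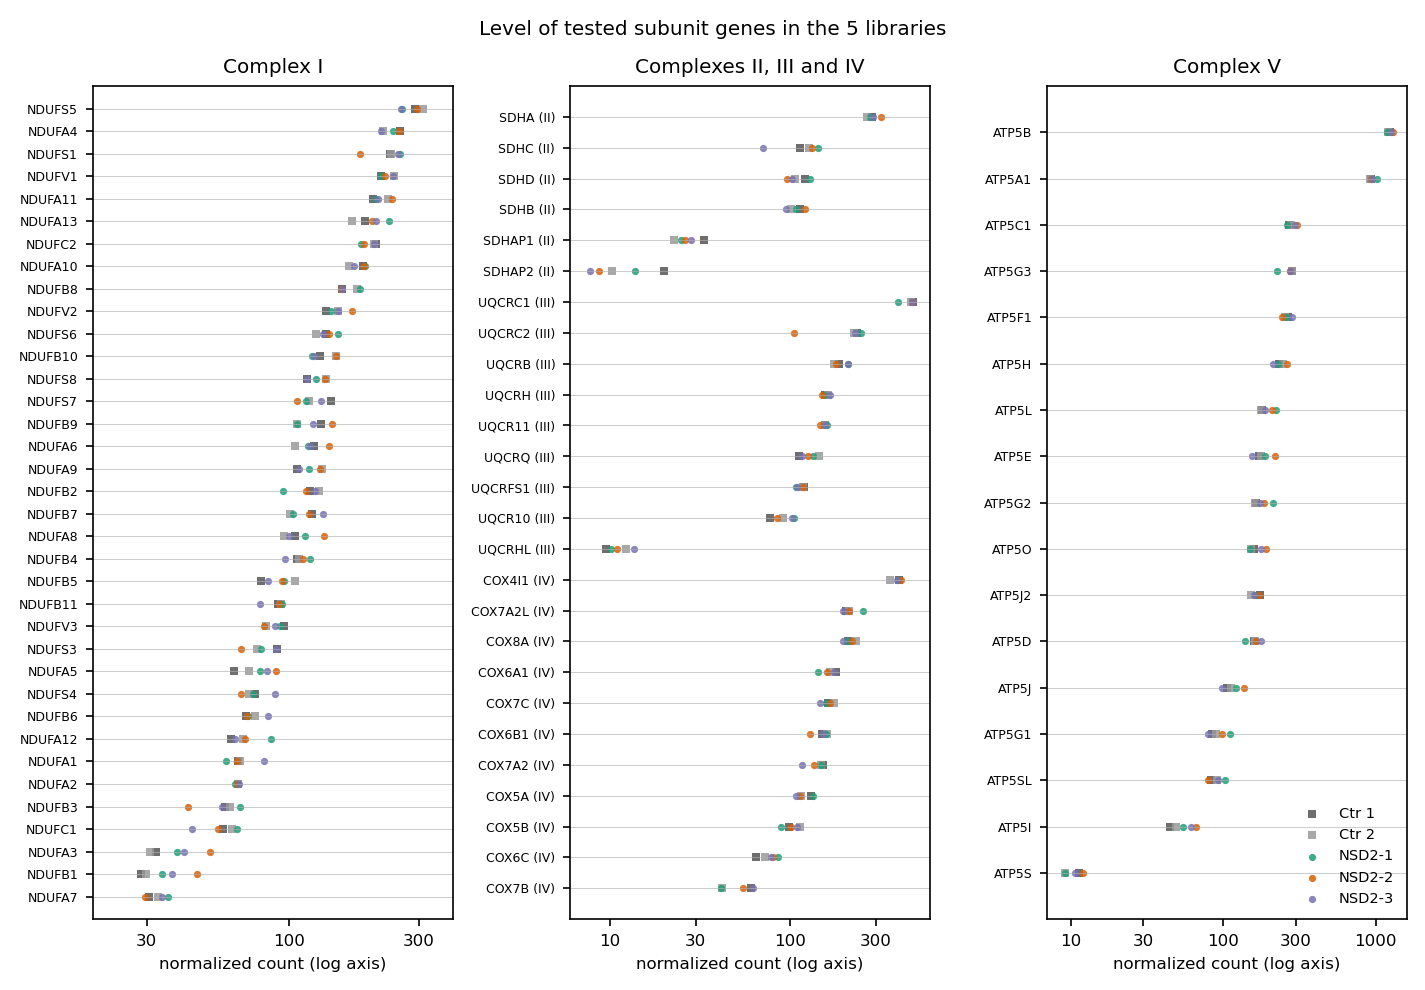
Normalized counts (log axis) of the tested subunit genes in the 2 Ctr-KD libraries (grey squares) and the 3 NSD2-KD libraries (coloured circles), by complex and mean level. The libraries of a gene lie close together next to the span between genes, from a mean of 10.5 for ATP5S to 1235 for ATP5B, and UQCRC2 and SDHC each show 1 point set apart.

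Some promoters of these genes share letters that the naming rule did not use. Many nuclear respiratory genes are known targets of the factor NRF1 and of ETS-family factors such as GABPA, and of YY1. The region from 250 bases before to 50 after 1 RefSeq start per gene (GRCh38.p14) was therefore searched on both strands. By current symbol, a promoter was found for 69 of the 91 genes and 64 of the 80 tested. The tested genes used for comparison were matched by their listed symbol only, so renamed genes can be missing there. The NRF1 core GCGCATG, or CATGCGC on the other strand, stood in 14 of the 64 promoters (21.9%), against 8.03% of tested genes with a promoter and 4.67% of all 27305 promoters. The ETS core CCGGAAG or CTTCCGG stood in 19 of 64 (29.7%), against 20.5% and 10.7%. The YY1 core ATGGCGG or CCGCCAT stood in 19 of 64 (29.7%), against 11.0% and 5.72%. At least 1 of the 3 stood in 36 of 64 (56.2%), against 33.8% and 18.4%. The shares differed by complex, given here for I to V in order (32, 3, 7, 10 and 12 promoters). The NRF1 core stood in 18.75%, 66.7%, 0%, 20% and 33.3% of them. For the ETS core the shares were 15.6%, 66.7%, 42.9%, 50% and 33.3%. For the YY1 core they were 40.6%, 66.7%, 28.6%, 10% and 8.33%. The forward and reverse forms of the NRF1 core can overlap in a palindrome, and such a promoter was counted once. A match is a run of letters and not a shown binding site.

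The following 40-base stretches show the NRF1 core in capitals with its surroundings, 2 promoters from each complex in which a tested gene had a match upstream of its start. No tested complex III promoter held it. They are shown so that the shared letters can be read.
NDUFS6 (chr5:1801345-1801384, plus strand, complex I): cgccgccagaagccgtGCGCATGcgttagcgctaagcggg
NDUFS7 (chr19:1383819-1383858, plus strand, complex I): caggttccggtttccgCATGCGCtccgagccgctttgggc
SDHD (chr11:112086747-112086786, plus strand, complex II): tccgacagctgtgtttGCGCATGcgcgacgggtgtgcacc
SDHB (chr1:17054208-17054247, minus strand, complex II): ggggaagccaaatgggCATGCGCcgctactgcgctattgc
COX6A1 (chr12:120437880-120437919, plus strand, complex IV): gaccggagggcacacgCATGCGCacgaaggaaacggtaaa
COX5B (chr2:97645911-97645950, plus strand, complex IV): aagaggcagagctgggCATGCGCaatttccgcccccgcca
ATP5G2 (chr12:53676099-53676138, minus strand, complex V): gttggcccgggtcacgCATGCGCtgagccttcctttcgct
ATP5J (chr21:25735151-25735190, minus strand, complex V): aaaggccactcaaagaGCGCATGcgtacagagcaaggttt

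The gene for NRF1 itself had normalized counts of 30.5 and 31.9 in Ctr-KD cells and 24.8, 19.7 and 22.5 in NSD2-KD cells, so its groups did not overlap, with a log2 difference of -0.47 that did not pass the test (SE 0.23, limma adjusted p = 0.597). Of all tested genes, 13.9% were lower with groups that did not overlap. The 14 subunit genes with the NRF1 core had a median log2 difference of 0.037, and the 50 without it 0.0021. For the ETS core the medians were -0.024 in the 19 genes with it and 0.038 in the 45 without, and for the YY1 core -0.0038 and 0.020. The genes printed above went both ways, from -0.15 for NDUFS7 to 0.22 for ATP5G2.

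Complex I is the largest of these enzymes, with a matrix arm that oxidizes NADH and passes electrons to ubiquinone and a membrane arm that pumps protons. Its 37 tested genes were split almost evenly, with 19 log2 differences above 0 and 18 below.

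NDUFA3, an accessory subunit of the membrane arm (chr19:54606036-54612564, hg19), gave the largest difference in complex I. It read 32.4 and 30.9 in Ctr-KD cells and 38.6, 51.3 and 41.0 in NSD2-KD cells, so all 3 NSD2-KD libraries lay above both Ctr-KD libraries. The log2 difference was 0.44 (SE 0.21, limma adjusted p = 0.592), from only 30 to 47 reads per library. Its exons overlap those of TFPT on the other strand.

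NDUFB1, also of the membrane arm, read 28.6 and 29.8 against 34.0, 45.9 and 37.1, a log2 difference of 0.39 (limma adjusted p = 0.650). NDUFA5, of the ubiquinone module, read 62.9 and 71.0 against 78.2, 89.6 and 83.0, a log2 difference of 0.32 (limma adjusted p = 0.612). In all of these NSD2-2 was the highest library, and NDUFA3 and NDUFB1 were the 2 subunit genes more than 1.5-fold above Ctr-KD with any siRNA.

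The lowest differences in complex I were smaller in size. NDUFB2 read 119 and 129 in Ctr-KD cells against 94.8, 116 and 125, a log2 difference of -0.15 with overlapping groups. NDUFS5 read 290 and 311 against 259, 296 and 258, and NDUFS7, an iron-sulfur subunit of the ubiquinone module, 143 and 118 against 115, 107 and 131, each with a log2 difference of -0.15. NDUFA4, named for complex I but now known as a subunit of complex IV, read 255 and 221 against 241, 255 and 218, a log2 difference of -0.0023. Its hypoxia-linked paralog NDUFA4L2 read 1.91 and 1.03 against 2.76, 4.37 and 3.90, which is 1 to 4 reads per library and too few to compare.

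Complex II, succinate dehydrogenase, is the one complex with no mitochondrially encoded subunit. SDHA, the flavoprotein that oxidizes succinate, read 288 and 270 in Ctr-KD cells and 279, 319 and 291 in NSD2-KD cells, a log2 difference of 0.087. SDHB, the iron-sulfur subunit, read 113 and 102 against 109, 121 and 95.7 (0.0072). SDHD, a membrane anchor that helps bind ubiquinone, read 122 and 107 against 129, 96.1 and 102 (-0.076). None of these 3 had groups that stood apart.

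SDHC, the other membrane anchor (chr1:161284171-161332996, hg19), differed with 1 siRNA. It read 113 and 129 in Ctr-KD cells, 144 with NSD2-1 and 132 with NSD2-2, but 71.3 with NSD2-3. That last value rests on 73 reads, with a 95% counting interval from 55.9 to 89.6, below the interval of every other library (the lowest of which began at 93.9). It lies -0.75 from the Ctr-KD mean on the log2 scale, and 4.32% of all tested genes lay lower with NSD2-3. Over the 3 siRNAs the log2 difference was -0.13 (limma adjusted p = 0.927), and without NSD2-3 it was 0.19. The pattern of more than 1.5-fold lower with NSD2-3 and within 1.5-fold with both others was shared by 434 tested genes (3.84%). SDHC was singled out after its values were seen.

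The other names under complex II are copies of SDHA that share long stretches with it. Only uniquely mapped reads were kept, so reads that fit several copies equally well are missing from each. SDHAP1 read 33.3 and 22.6 against 24.8, 26.2 and 28.3, a log2 difference of -0.055. SDHAP2 read 20.0 and 10.3 against 13.8, 8.74 and 7.81 (-0.51, SE 0.39, limma adjusted p = 0.761), and SDHAP3 lay between 1.91 and 6.83 and was not tested. SDHA and the 3 copies summed to 343 and 307 against 320, 358 and 334, a sum that lacks those shared reads too.

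In complex III, the cytochrome bc1 complex, 6 of 9 tested genes were below 0 and 3 above. UQCR10, a small subunit near cytochrome c1, read 77.2 and 91.6 in Ctr-KD cells against 105, 85.2 and 102 (log2 difference 0.21, limma adjusted p = 0.775). UQCRB, which binds ubiquinone, read 187 and 176 against 211, 181 and 211 (0.14). With both genes, NSD2-2 stayed within the Ctr-KD range while the other siRNAs lay above it. UQCRC1, a core protein, read 481 and 472 against 399, 475 and 475 (-0.088), with NSD2-1 alone below. UQCRFS1, the Rieske iron-sulfur protein, read 120 and 118 against 109, 119 and 109 (-0.086). UQCRHL, a near copy of UQCRH, read between 9.53 and 13.7 with a log2 difference of 0.075, and UQCRH and UQCRHL summed to 166 and 175 against 166, 163 and 182. The pseudogene UQCRBP1 had at most 5.86 and was not tested.

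UQCRC2, the second core protein (chr16:21964609-21994981, hg19), gave the largest single-library departure among the 80 genes. It read 235 and 228 in Ctr-KD cells, 248 with NSD2-1 and 229 with NSD2-3, but 105 with NSD2-2. The NSD2-2 value rests on 96 reads, with a 95% counting interval from 84.9 to 128, while every other library had an interval starting at 199 or above. Its chi-square per degree of freedom over the 5 libraries was 15.4, the highest of the 80 genes. On the log2 scale it lay -1.14 from the Ctr-KD mean with NSD2-2, and 3.1% of all tested genes lay lower with that siRNA. The log2 difference over the 3 siRNAs was -0.35 (SE 0.33, limma adjusted p = 0.803), and without NSD2-2 it was 0.040. A level under 50% of Ctr-KD with NSD2-2 and within 1.5-fold with the others was found in 167 tested genes (1.48%). No exon of another annotated gene overlaps UQCRC2. It too was singled out after its values were seen, and no second library of NSD2-2 was there to repeat it.

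**Figure D3:**
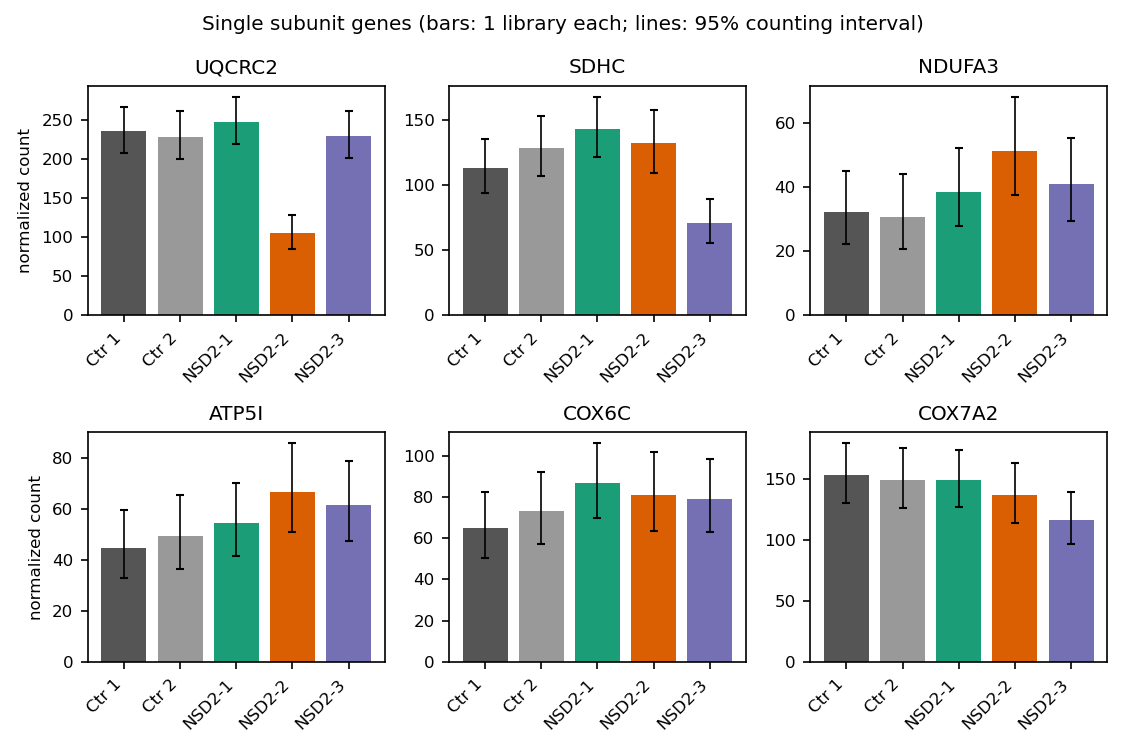
Normalized counts of 6 subunit genes in each of the 5 libraries, 1 bar per library, with lines for the exact 95% counting interval of its reads. UQCRC2 with NSD2-2 (105) and SDHC with NSD2-3 (71.3) lie outside the intervals of the other libraries, whereas the steps in NDUFA3, ATP5I, COX6C and COX7A2 lie within overlapping intervals.

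Beyond these, single libraries rarely departed. With NSD2-1 no subunit gene lay more than 1.5-fold from the Ctr-KD mean, against 7.13% of all tested genes lower and 3.45% higher. With NSD2-2, 2 genes were lower (UQCRC2 and SDHAP2; 9.93% of all tested genes) and 2 higher (NDUFA3 and NDUFB1; 4.39%). With NSD2-3, 2 were lower (SDHC and SDHAP2; 7.4%) and none higher (3.85%). Restricted to genes with a mean of at least 50, the shares of all tested genes were 4.72% lower and 1.82% higher with NSD2-1, 7.12% and 2.54% with NSD2-2, and 4.97% and 2.04% with NSD2-3. Of the 73 subunit genes at that level only UQCRC2 and SDHC, each with 1 siRNA, were past 1.5-fold.

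Complex IV, cytochrome c oxidase, has several subunits with a common form and a form restricted to certain tissues. In these fibroblasts the common forms were read, and of the others only COX7A1 had any read. COX4I1 read 403 and 361 in Ctr-KD cells against 398, 415 and 393 (log2 difference 0.076), while COX4I2, known from lung and hypoxia, had no read. COX6A1 read 181 and 167 against 143.5, 161 and 176 (-0.12), and the heart and muscle form COX6A2 had no read. COX6B1 read 151 and 162 against 158, 129 and 152 (-0.0996), and the testis form COX6B2 had none. COX7B read 61.0 and 42.2 against 41.4, 54.6 and 62.5 (0.038) and COX8A 211 and 233 against 209, 222 and 198 (-0.082), with no read for COX7B2 or COX8C. A count of 0 allows up to 3 reads (the one-sided 95% limit), which is 2.76 to 3.28 normalized counts in these libraries. Such intervals and limits cover counting error only.

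Of the COX7A genes, COX7A2 read 153 and 149 in Ctr-KD cells and 149, 137 and 116 in NSD2-KD cells. All 3 NSD2-KD values were below both Ctr-KD values, though by little with NSD2-1, and the log2 difference was -0.18 (SE 0.15, limma adjusted p = 0.775). COX7A2L, known to link complexes III and IV, read 204 and 213 against 255, 212 and 198 (0.081). The muscle form COX7A1 read 0 and 4.12 against 4.60, 4.37 and 3.90, at most 5 reads, and was not tested. COX6C, a small subunit with no second form here, read 64.8 and 73.0 against 86.5, 80.8 and 79.1, above Ctr-KD in all 3, with a log2 difference of 0.25 (SE 0.16, limma adjusted p = 0.692).

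In complex V, the catalytic F1 head (ATP5A1, ATP5B, ATP5C1, ATP5D and ATP5E) had a median log2 difference of 0.057 and the 7 genes of the stalk and membrane part 0.10, with 6 of 7 above 0, a division written after the values had been seen. ATP5B, the most abundant, read 1231 and 1206 in Ctr-KD cells against 1184, 1293 and 1262, a log2 difference of 0.032 with a 95% interval from -0.17 to 0.23. ATP5D, the delta subunit of the head, read 158 and 161.5 against 138, 165 and 178 (-0.0044). ATP5H, subunit d of the stalk, read 233 and 248 against 227, 261 and 211 (-0.051).

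ATP5I, subunit e, and ATP5L, subunit g, both sit in the membrane part and help pair ATP synthases into dimers. ATP5I read 44.8 and 49.4 in Ctr-KD cells against 54.3, 66.6 and 61.5, a log2 difference of 0.36 (SE 0.18, limma adjusted p = 0.612). ATP5L read 179 and 176 against 222, 209 and 188, a log2 difference of 0.21 (SE 0.13, limma adjusted p = 0.673). In both, every NSD2-KD library lay above both Ctr-KD libraries. Its near copy ATP5L2 had 1 read in all, and the pseudogene ATP5EP2 had none. ATP5S and ATP5SL carry the prefix but are not structural subunits of the enzyme.

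Subunit c, which forms the rotating ring, is encoded by 3 genes, ATP5G1, ATP5G2 and ATP5G3, whose products differ only in the targeting peptide that is cut off. ATP5G3 read 281 and 282 in Ctr-KD cells against 226, 274 and 273, below Ctr-KD in all 3 (log2 difference -0.13, limma adjusted p = 0.816). ATP5G2 read 164 and 162 against 213, 186 and 174, above in all 3 (0.22, limma adjusted p = 0.682). ATP5G1 read 84.8 and 89.5 against 110.4, 98.3 and 80.0 (0.13, limma adjusted p = 0.874). The sum of the 3 genes was 530 and 533 in Ctr-KD cells and 549, 558 and 527 in NSD2-KD cells, between 99.2% and 105.1% of the Ctr-KD mean. With NSD2-1, ATP5G3 gave 41.2% of this sum and ATP5G2 38.7%, whereas the Ctr-KD libraries had 53.1% and 52.9% from ATP5G3 and 30.9% and 30.3% from ATP5G2. With NSD2-2 the ATP5G3 share was 49.1% and with NSD2-3 51.9%.

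**Figure D4:**
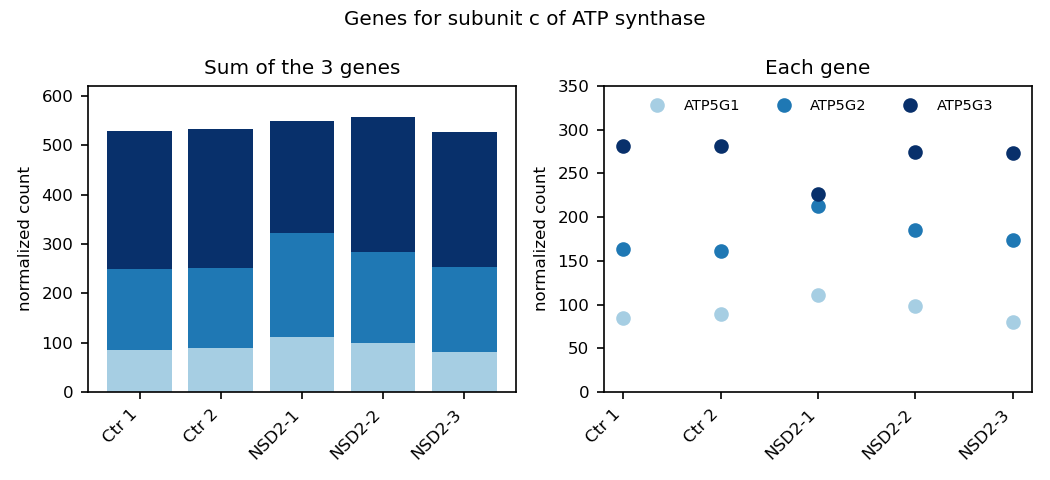
Normalized counts of ATP5G1, ATP5G2 and ATP5G3 by library, stacked on the left and gene by gene on the right, with no error bars since each value is 1 library. The sum stays between 527 and 558 in all libraries, while with NSD2-1 ATP5G3 (226) and ATP5G2 (213) come close to each other.

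In total, 8 of the 80 genes had every NSD2-KD library above both Ctr-KD libraries (NDUFA3, NDUFB1, NDUFA5, NDUFA13, COX6C, ATP5I, ATP5G2 and ATP5L) and 2 had every one below (COX7A2 and ATP5G3). Over all tested genes, 13.8% were higher and 13.9% lower in this sense, so the subunits' shares of 10% and 2.5% were at or under the background. NDUFA13 is named here because it belongs to this count, and it read 190 and 170 against 234, 202 and 208.

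Genes that build or serve the chain were set beside the subunits, from lists written from general knowledge. For 5 tested genes whose names the rule leaves out, which are the subunits CYC1 (log2 difference 0.036), NDUFAB1 (-0.0034), USMG5 (-0.087) and C14orf2 (-0.19) and the ATP synthase inhibitor ATPIF1 (-0.027), the median was -0.027. For 49 assembly factors it was -0.0079, for 18 genes of cytochrome c, carriers and ubiquinone synthesis 0.017, and for 16 genes of mitochondrial DNA expression and biogenesis -0.048. For 18 genes of the TCA cycle and pyruvate dehydrogenase it was 0.017, for 30 of protein import -0.067 and for 76 of the mitochondrial ribosome -0.053. In these lists limma called no gene at an adjusted p of 0.05, and of the 212 tested genes 5 were higher and 1 lower at an unadjusted p under 0.05, against 4.19% and 4.99% of all tested genes. The 6 were COA5, SDHAF3, OGDH, TIMM17A and MRPL51 (higher) and NUBPL (lower).

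TIMM17A, a subunit of the inner membrane translocase that brings proteins into the matrix, had the largest difference in these lists. It read 101 and 105 in Ctr-KD cells and 210, 193 and 203 in NSD2-KD cells, a log2 difference of 0.97 (SE 0.13). Its limma adjusted p was 0.0504, just over the threshold, and it passed in edgeR (adjusted p = 0.0451) and DESeq2 (adjusted p = 0.00353). TOMM22, of the outer membrane, read 102 and 109 against 124, 112.5 and 134 (0.22), and TIMM10, an intermembrane space chaperone, 45.7 and 57.6 against 45.1, 33.9 and 43.0 (-0.34). The import list as a whole did not follow TIMM17A, with 14 of 30 genes above 0.

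Among assembly factors, NUBPL, which delivers iron-sulfur clusters to complex I, read 26.7 and 42.2 in Ctr-KD cells against 17.5, 25.1 and 16.6 (log2 difference -0.76, limma adjusted p = 0.494), and UQCC3 of complex III 37.2 and 34.0 against 32.2, 24.0 and 22.5 (-0.44). SDHAF3 of complex II read 11.4 and 5.14 against 16.6, 13.1 and 16.6 (0.90, limma adjusted p = 0.515), and COA5 of complex IV 13.3 and 16.5 against 25.8, 19.7 and 27.3 (0.66, limma adjusted p = 0.506). These genes have few reads and none passed.

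OGDH, the first component of the oxoglutarate dehydrogenase complex in the TCA cycle, read 332 and 291 against 409, 375 and 401 (0.34, limma adjusted p = 0.389). IDH2, the NADP-dependent isocitrate dehydrogenase, read 204 and 159 against 143, 146 and 144 (-0.32, limma adjusted p = 0.566). Both had groups that did not overlap. In this list of 18 genes that was so for 2 higher and 2 lower, against 13.8% and 13.9% of all tested genes. IDH3A and IDH3B, of the NAD-dependent enzyme, differed by 0.15 and -0.12.

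CYCS, cytochrome c, read 254 and 252 against 325, 280 and 198, a log2 difference of 0.050 with 2 siRNAs above and 1 below. Of the ubiquinone synthesis genes, PDSS2 (0.35) and COQ9 (0.31) were highest and COQ2 (-0.35) and COQ6 (-0.24) lowest. Of regulators, TFAM, which packs and transcribes mitochondrial DNA, read 55.3 and 70.0 against 89.3, 62.3 and 83.9 (0.31, limma adjusted p = 0.717). PPARGC1A, a coactivator of mitochondrial biogenesis, had 1 read in all 5 libraries together. POLG2 (0.36) and MTERF1 (0.33) had the highest values of that list and NRF1 and TFB2M (-0.29) the lowest, with none past the test. In the mitochondrial ribosome, MRPL51 read 129 and 121 against 163, 168 and 185.5 (0.46, limma adjusted p = 0.321) and MRPL50 differed by 0.33, while MRPS9 (-0.80) and MRPL18 (-0.50) were lowest, each through NSD2-2. Of its 76 genes, 44 were below 0, against 51.5% of all tested genes. Groups did not overlap for 9 lower and 6 higher, against 13.9% and 13.8% of all tested genes.

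**Figure D5:**
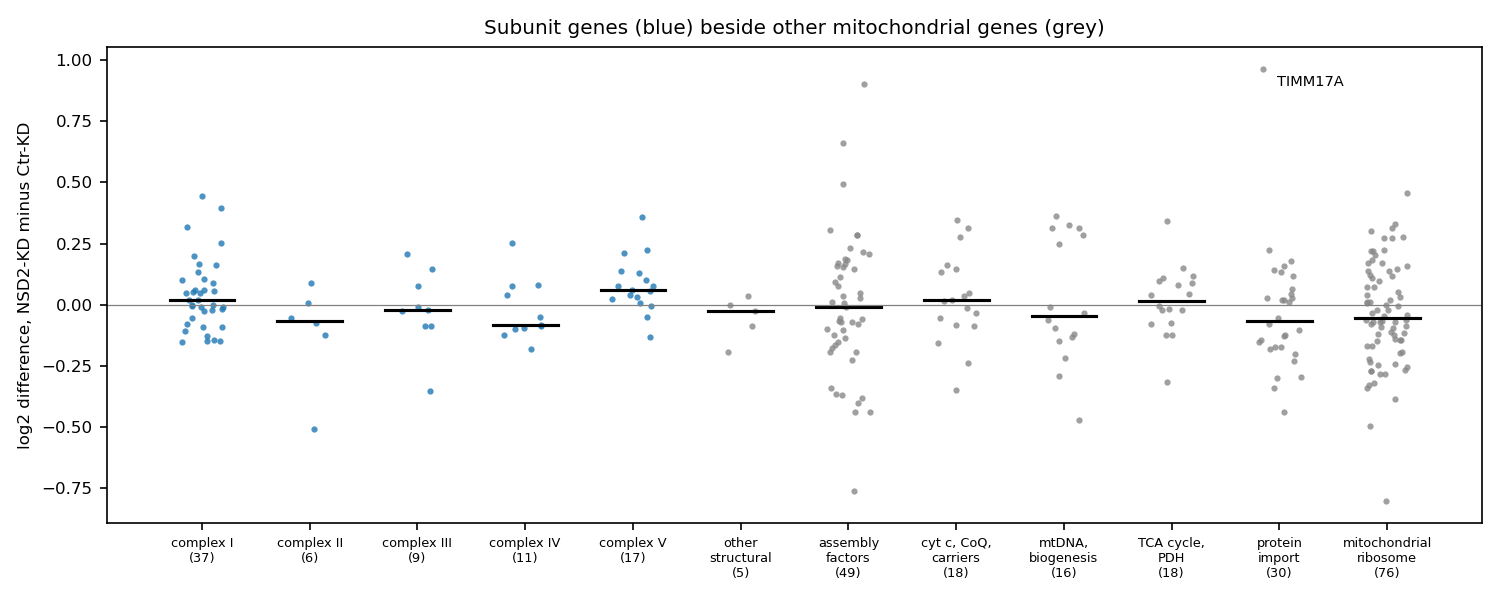
Log2 difference of NSD2-KD from Ctr-KD for each tested gene, for complexes I to V (blue) and 7 lists of other mitochondrial genes (grey), with the number of genes in brackets and medians as black bars. All medians lie between -0.082 and 0.060, and TIMM17A at 0.97 is the highest point.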

How the data were processed

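The deposited signal, normalized counts, holds reads per gene that the authors divided by 1 DESeq2 size factor per library, after trimming, mapping to hg19 with HISAT2, keeping uniquely mapped reads with SAMtools and counting with featureCounts. The second deposited table, which holds the authors' own comparison (fold changes and p-values), was not used. Each value was a whole multiple of what 1 read is worth (tolerance 0.01, 100% of values), so reads were recovered for edgeR and DESeq2 and for the exact Poisson intervals.

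The main test was limma (3.58.1, R 4.3.3) on log2(normalized count + 1), with a trend of variance on mean, over genes with a mean of at least 10 (11313), Benjamini-Hochberg over all of them, threshold 0.05. Fold changes of low genes are understated on this scale. Alternatives were pseudocounts of 0.5 and 5, no filter beyond 1 read, a minimum of 50, no trend, TMM scaling, quantile normalization, edgeR (4.0.16), DESeq2 (1.42.0), the replicate number as a block, and each library left out. After seeing the data, medians without pseudogenes, UQCRHL, ATP5S and ATP5SL were added, together with canonical transcript lengths. Those medians are not given here. On simulated data with 100 genes changed 2-fold and 100 changed 4-fold, limma called 86 and 100 of them, with 3 false calls over 11227 genes. The changed genes were drawn from the better-read genes only, and the same low spread was set for every gene. These shares therefore need not hold in the real data.

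The naming rule uses no measured value, but members and lists were chosen with earlier results of these data known, and no set test was run. Of the tested complex I genes, 1 is counted but otherwise not reported here. Named subunits are, per complex, the 3 largest and 3 smallest differences (all of complex II), the highest level per kilobase, isoform families, and untested genes or pseudogenes. In the other lists they are genes called, the 2 largest and 2 smallest differences, CYCS, NRF1, TFAM and PPARGC1A. All 91 names matched GENCODE on GRCh37, the assembly of hg19, which gave positions, lengths and overlaps. Promoters came from RefSeq on GRCh38.p14 and were not joined to hg19 positions.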

Additional observations from a re-analysis of the deposited data

How the results depend on the processing

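No subunit passed an adjusted p of 0.05 in any alternative, and over these the adjusted p of UQCRC2 ranged from 0.450 to 1.00 and that of NDUFA3 from 0.453 to 1.00. At an unadjusted p under 0.05, 1 subunit was higher without the trend and 1 with quantile normalization. In the main limma fit, 4.19% of all tested genes were higher at that level. Groups that did not overlap numbered 6 to 9 (higher) and 2 to 3 (lower) with a minimum of 50, TMM or quantile normalization. With a minimum of 50 they were 6 and 2 of 73, against 15.2% and 12.9% of all genes at that level. Shares of all genes under TMM or quantile normalization are not given here. The complex medians were small next to their own movement, called larger here where it exceeded the pooled spread of library medians within groups, a measure chosen after seeing the data. The complex I median was -0.0016 with a minimum of 50 and 0.040 with quantile normalization. The complex IV median was -0.066 without the filter, -0.064 with quantile normalization and -0.064 in DESeq2, so it stayed below 0. Over all members the median was 0.032, and with NSD2-2 0.066, under quantile normalization. No scaling moved the median of all genes by over 0.1. In protein import, 1 gene (TIMM17A) was called with a pseudocount of 5, a minimum of 50, quantile normalization, edgeR, DESeq2 and the replicate block. Among the 35 named subunits tested, other changes of sign were in differences near 0: ATP5D was 0.0063 with quantile normalization and 0.0023 in DESeq2, and SDHAP1 0.031 with quantile normalization. The cause was not tested.

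Same-numbered libraries of the 2 groups share only that number, and their deviations correlated at -0.015 (number 1) and -0.027 (number 2). The deviations of 2 Ctr-KD libraries mirror each other. A pair with the other Ctr-KD library therefore has the same size with the opposite sign, and these values cannot decide on a pairing. The replicate block, which drops NSD2-3 since no Ctr-KD library has its number, gave medians of 0.037 for complex I and -0.045 for complex IV, and changed the sign of ATP5H (0.018), COX7B (-0.091), NDUFA4 (0.060), SDHC (0.19) and UQCRHL (-0.042).

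With each library left out in turn, the median of complex I ranged from 0.0029 to 0.037, of complex IV from -0.064 to -0.018, of complex V from 0.013 (without NSD2-2) to 0.078 and of all members from 0.0031 to 0.031. The siRNA medians ranged from 0.024 to 0.050 (NSD2-1), 0.0015 to 0.039 (NSD2-2) and -0.00037 to 0.040 (NSD2-3). Of those 35, the ones whose sign changed ranged as follows: ATP5D -0.082 to 0.098, ATP5H -0.14 to 0.018, COX4I1 -0.0028 to 0.16, COX7A2L -0.024 to 0.16, COX7B -0.22 to 0.30, NDUFA4 -0.11 to 0.10, SDHAP1 -0.32 to 0.21, SDHB -0.076 to 0.094, SDHC -0.31 to 0.19, SDHD -0.20 to 0.017, UQCRC2 -0.58 to 0.040 and UQCRHL -0.096 to 0.25. Where 1 Ctr-KD library remains, it is assumed to vary like the NSD2-KD libraries. Depth limits genes such as SDHAP2, UQCRHL and ATP5S, with 8 to 21 reads per library.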

Other observations

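Single-siRNA lows of the kind seen in UQCRC2 also occurred in other mitochondrial genes. MRPS9, a protein of the small mitochondrial ribosomal subunit, read 56.2 and 58.6 in Ctr-KD cells, 56.1 with NSD2-1 and 66.4 with NSD2-3, but 8.74 with NSD2-2. MRPL18, of the large ribosomal subunit, read 119 and 104, then 101 and 106 with NSD2-1 and NSD2-3, but 44.8 with NSD2-2. MTX2, an outer membrane protein of import and cristae organization, read 45.7 and 54.5, then 57.1 and 51.7, but 16.4 with NSD2-2. In none of these did the limma test over the 3 siRNAs pass, with adjusted p-values of 0.798, 0.731 and 0.837. A level under 50% of the Ctr-KD mean with 1 siRNA and within 1.5-fold with the other two was seen in 3 of 212 genes of the mitochondrial lists with NSD2-2 (MRPL18, MRPS9 and MTX2), in 2 with NSD2-1 (SDHAF1 and TOMM20) and in none with NSD2-3. Over all tested genes the shares were 1.48%, 0.751% and 0.857%. These genes were looked at after their values were seen, and each siRNA has 1 library.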
